A study of Mus musculus with 9 samples.

Results

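The genes followed here encode the 3 D cyclins (Ccnd1, Ccnd2, Ccnd3), their partner kinases (Cdk4, Cdk6), 4 CDK inhibitors (Cdkn1a, Cdkn1b, Cdkn2a, Cdkn2c) and the retinoblastoma protein (Rb1). They were picked by name, with earlier results of these data known, for their place at the entry into S phase. They make up 10 of the 55274 gene identifiers in the tables, and all 10 passed the filter on low values. In this pathway, growth signals raise D cyclins, which bind CDK4 or CDK6, and the active kinases phosphorylate the retinoblastoma protein. The phosphorylated protein lets go of E2F factors, which switch on genes for DNA replication. Inhibitors of the INK4 family bind CDK4 and CDK6 directly, whereas those of the CIP/KIP family bind cyclin-CDK complexes, and the D cyclins can stand in for each other in part. The question put to the data was whether Ccnd2 or Ccnd3 was higher where Ccnd1 was lower. Because these genes and the lists used below were chosen with results known, counts set beside all tested genes are descriptions, not tests.

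The study asked how an activated RAS gene acts together with a fusion oncogene of acute myeloid leukaemia. NRASG12D is a permanently active form of the small GTPase NRAS, while the NUP98-NSD1 fusion protein carries segments of a nucleoporin and of an enzyme that methylates histones. Bone marrow was taken from C57BL6/J mice 4 days after 150 mg/kg 5-fluorouracil and stimulated for 48 h in medium with 15% FBS, hIL-6 at 10 ng/mL, mIL-3 at 6 ng/mL and mSCF at 20 ng/mL. Cells were then transduced with MSCV-IRES-GFP or MSCV-IRES-BFP retroviral vectors, which drive their insert constitutively, sorted by fluorochrome and expanded in culture. RNA sequencing gave 3 libraries of cells with NRASG12D alone, 3 with NUP98-NSD1 alone and 3 with NUP98-NSD1+NRASG12D, and cells with empty vectors were not analysed here. Nothing in the sources used says that replicates came from separate animals or cultures, so p-values measure only the spread between these samples, which may be technical.

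Levels are given in FPKM, fragments scaled to transcript length and to the mapped fragments of the library, which can be compared between genes. Estimated from the steps between low values, the NRASG12D libraries held 2.39e+07, 3.52e+07 and 2.24e+07 fragments. The NUP98-NSD1 libraries held 2.94e+07, 2.64e+07 and 2.4e+07. With both oncogenes the estimates were 2.81e+07, 2.43e+07 and 2.28e+07. At these depths 3 fragments of a transcript of 2000 bp correspond to 0.0426 to 0.0671 FPKM, so each of the 10 genes lay far above the counting floor in every library. That floor covers counting error only.

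Markers of blood cell types differed between the groups, and their part in the results below was not tested. All 10 mast cell markers were found, and their summed level was 30030, 32640 and 31170 FPKM in the NRASG12D libraries, 27090, 26840 and 31850 in NUP98-NSD1, and 972, 4336 and 744.5 in NUP98-NSD1+NRASG12D. Cma1 was the most abundant of them in NRASG12D and Cpa3 in the other libraries, while Cpa3 was listed at 0 in all 3 NRASG12D libraries, which may be a failed estimate, and measured 13410, 12560 and 14380 FPKM in NUP98-NSD1 and 353, 1821 and 279.6 in NUP98-NSD1+NRASG12D. The 6 markers of granulocyte and monocyte progenitors summed to 31.1, 35.9 and 29.7 FPKM in NRASG12D, 6103, 6042 and 1539 in NUP98-NSD1, and 14480, 5300.0 and 7970.0 in NUP98-NSD1+NRASG12D. Ctsg led this list in NRASG12D, Ly6c2 in NUP98-NSD1+NRASG12D replicate 3 and Mpo elsewhere, and Mpo and Elane were listed at 0 in NRASG12D replicate 1.

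The 8 neutrophil markers summed to 3.00, 10.6 and 4.00 FPKM in NRASG12D, 1137, 645 and 661 in NUP98-NSD1, and 2871, 5786 and 15900 in NUP98-NSD1+NRASG12D. S100a8 was their most abundant gene outside NRASG12D, where Ly6g or Mmp8 led and Ltf and Camp were listed at 0 in each library, with Csf3r, S100a8 and S100a9 also at 0 in replicate 1 and Csf3r, Ngp and S100a9 in replicate 3. The 8 macrophage markers, led by Lyz2 except in NRASG12D replicate 3 where Cd68 led, summed to 72.5, 124 and 43.7 FPKM in NRASG12D, 1726, 1246 and 1487 in NUP98-NSD1, and 3686, 10830 and 10450 in NUP98-NSD1+NRASG12D; C1qa and C1qb were listed at 0 in NRASG12D replicates 1 and 3. For the 7 erythroid and megakaryocyte markers the sums were 481, 567 and 496 FPKM with Itga2b in front, 282.5, 304 and 325 with Itga2b in front, and 93.1, 1247 and 119 with Pf4 in front, in the same order of groups, and Gp9 was listed at 0 in NUP98-NSD1+NRASG12D replicate 3. In NRASG12D and NUP98-NSD1 this sum was mostly Itga2b, and with both oncogenes mostly Pf4, at 62.75, 1157 and 110.9 FPKM. Itga2b fell by 1.16 in NUP98-NSD1 relative to NRASG12D (adjusted p = 0.00116), a call lost with all 9 libraries in one fit (adjusted p = 0.199). The other 5 of the 6 tested markers of this list rose there (median of the list 2.08, beside 0.27 for all tested genes, of which 42.2% rose). The 7 lymphoid markers summed to 0.578, 1.11 and 0.525 FPKM, 0.646, 1.42 and 1.25 FPKM, and 0.413, 0.481 and 0.0849 FPKM, with Ncr1 in front except in NUP98-NSD1+NRASG12D replicates 1 and 3, where Cd3g and Trac led, and none was abundant enough to be tested. Cd3e was listed at 0 in 6 of the 9 libraries. The mast cell sum was lowest in NUP98-NSD1+NRASG12D and the myeloid sums were lowest in NRASG12D. The mast cell sums of NRASG12D and NUP98-NSD1 cannot be compared as wholes because of Cpa3, and 5 of the 10 mast cell markers fell in NUP98-NSD1 relative to NRASG12D, where 9.98% of all tested genes fell, while Hdc and Mcpt4 rose and Cpa3 is not counted. With all 9 libraries in one fit 1 of the 10 fell.

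Fold changes are on the scale of log2(FPKM + 1), with adjusted p from limma over 13493 tested genes, and they are given as the first group minus the second. The median tested gene lay at 0.27 in NUP98-NSD1 minus NRASG12D, 0.23 in NUP98-NSD1+NRASG12D minus NRASG12D and −0.06 in NUP98-NSD1+NRASG12D minus NUP98-NSD1, and median-ratio scaling between libraries moved it to −0.01, 0.03 and 0.03. The comparisons share libraries, so their values are set side by side and are not independent of each other.

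In NUP98-NSD1 minus NRASG12D, 1 member of 10 rose and 4 fell, where 42.2% of all tested genes rose and 9.98% fell. The groups did not overlap for 7 members, against 64.2% of tested genes. The split between higher and lower genes moved with the scaling, from 5689 higher and 1347 lower to 3059 and 3146 under median-ratio scaling and 2622 and 3444 under quantile normalization. It was 2604 and 461 with all 9 libraries in one fit and 3857 and 1063 of 41853 genes without the filter. With libraries left out, 3898 to 6342 genes were higher and 838 to 1606 lower. Members called went to 1 higher and 6 lower under both scalings, and to 0 higher and 2 lower when all 9 libraries shared one fit. In that fit 4 members lay below an unadjusted p of 0.05, as did 5720 of all 13493 tested genes. The member median was −0.17, beside 0.27 for all tested genes.

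In NUP98-NSD1+NRASG12D minus NRASG12D, no member rose and 3 fell in the limma fit, where 24.2% of tested genes rose and 14.1% fell. At an unadjusted p below 0.05 the members also gave 0 higher and 3 lower, where 6697 of all 13493 tested genes passed in either direction. The groups did not overlap for 6 members, against 58.6% of tested genes, and the member median was −0.45, beside 0.23. Over all genes the split was 3266 higher and 1907 lower, which became 2665 and 2574 under median-ratio scaling and 2151 and 3063 under quantile normalization. It was 1827 and 1242, 1933 and 1226, and 1727 and 1214 without NRASG12D replicates 1, 2 and 3. Without NUP98-NSD1+NRASG12D replicates 1, 2 and 3 it was 3447 and 2089, 4202 and 2125, and 2613 and 1594. Without the filter it was 1911 and 1960 of 41853 genes, and in one fit of all 9 libraries 4247 and 2259. Between NUP98-NSD1+NRASG12D and NUP98-NSD1, 1 member rose and 1 fell, where 2.30% of tested genes rose and 6.31% fell. Here the groups did not overlap for 6 members, against 31.4% of tested genes, and the member median was −0.37, beside −0.06. The split of 311 higher and 851 lower genes became 408 and 711 under quantile normalization.

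Exact permutation tests of single members, two-sided, cannot go below 0.1 with 3 libraries against 3. They gave 0.1 for the members whose groups did not overlap, 7, 6 and 6 in the 3 comparisons, and more for the others.

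**Figure D1:**
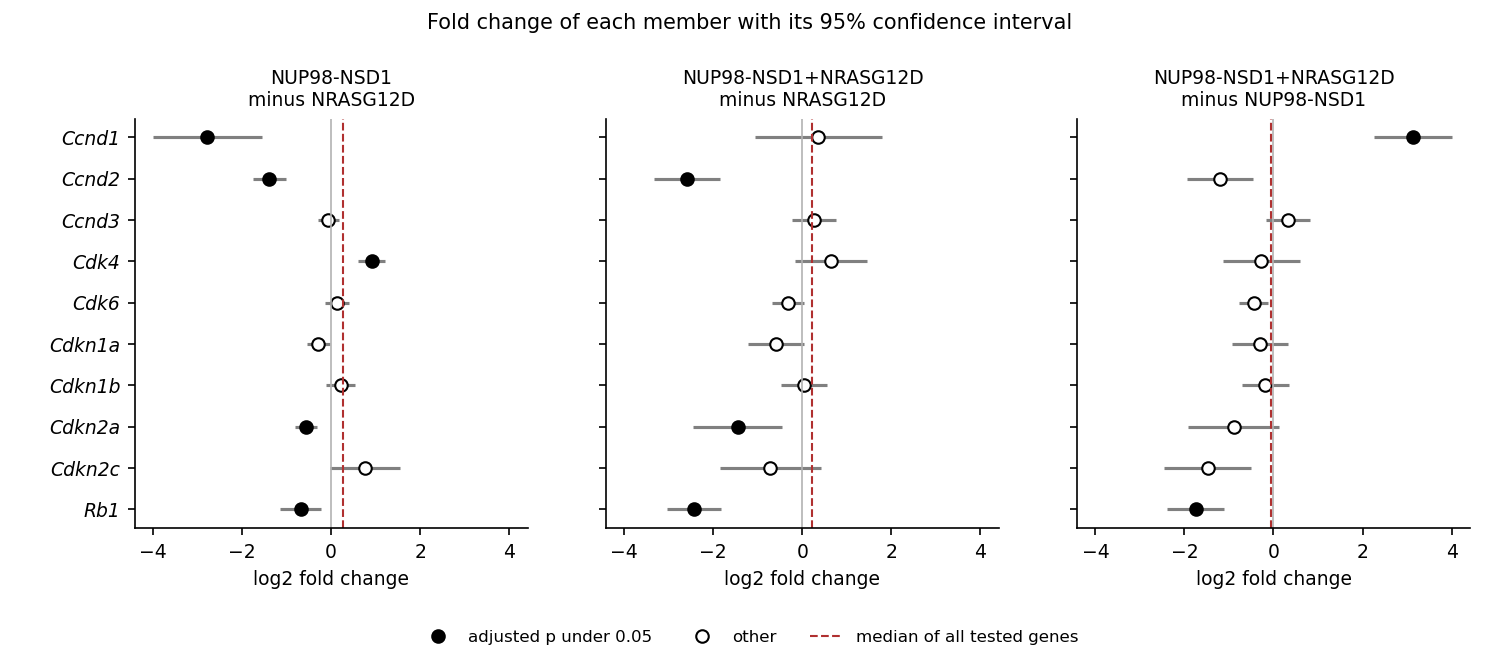
Log2 fold change of each member in the 3 comparisons (x axis, log2 of FPKM + 1), with bars for its 95% confidence interval, filled points for adjusted p under 0.05 and a dashed line for the median of all tested genes. Ccnd1 was lower at −2.78 in the first comparison and higher at 3.14 in the third, while Ccnd2 was below 0 in all 3 and did not pass the test in the third.

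Cyclin D1 is the D cyclin most often tied to growth factor and RAS signals. Its gene, Ccnd1 (GRCm38 chr7:144929931-144939925, minus strand), measured 10.1, 50.1 and 32.9 FPKM in the NRASG12D libraries, 2.16, 3.85 and 2.85 in NUP98-NSD1, and 18.5, 40.8 and 48.4 in NUP98-NSD1+NRASG12D. Replicate 1 was the lowest library of both NRASG12D-carrying groups, and still lay above every NUP98-NSD1 library, whereas the 2 NRASG12D-carrying groups overlapped. In bulk samples, fewer cells that express a gene and less RNA per cell cannot be told apart. Ccnd1 fell by 2.78 in NUP98-NSD1 relative to NRASG12D (SE 0.52, adjusted p = 0.00506), or −3.05 relative to the median gene, with all 3 libraries below all 3. Without NRASG12D replicate 1 the fold change was −3.42 (adjusted p = 0.00109, range over 13 alternatives 0.00109 to 0.0459). It rose by 3.14 in NUP98-NSD1+NRASG12D relative to NUP98-NSD1 (SE 0.37, adjusted p = 0.00793), a call that ended without the filter on low values (adjusted p = 0.0766, range over 13 alternatives 0.00159 to 0.0766).

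Reads of Ccnd1 may be shared with the gene LTO1 on the opposite strand, which covers 1100 bases or 23.4% of its exonic length. LTO1 measured 12.0, 18.9 and 16.7 FPKM in NRASG12D, 11.8, 10.5 and 11.1 in NUP98-NSD1, and 6.85, 15.1 and 11.6 in NUP98-NSD1+NRASG12D. Its values overlapped between NRASG12D and NUP98-NSD1+NRASG12D. Every NUP98-NSD1 library lay below every NRASG12D library, as for Ccnd1, with 11.8 and 12.0 FPKM as the nearest values. The fold change of LTO1 in NUP98-NSD1 minus NRASG12D was −0.45 (adjusted p = 0.0504). Strand-specific counting is not stated, so reads of overlapping genes cannot be told apart, here and for the overlaps named later.

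Cyclin D2 is abundant in many blood cell precursors. Its gene, Ccnd2 (chr6:127125162-127152193, minus strand), stood at 1020.5, 1178 and 1404 FPKM in NRASG12D, 384, 460.4 and 534 in NUP98-NSD1, and 234, 266 and 125 in NUP98-NSD1+NRASG12D. No values overlapped between any of the groups, with NRASG12D highest and NUP98-NSD1+NRASG12D lowest. The means were 1201 ± 193, 459.7 ± 75.1 and 208 ± 74.0 FPKM (SD, n = 3 each). Ccnd2 fell by 1.38 in NUP98-NSD1 relative to NRASG12D (SE 0.16, adjusted p = 0.00119), −1.66 relative to the median gene, and its mean there was 0.383 of that in NRASG12D. It fell by 2.58 in NUP98-NSD1+NRASG12D relative to NRASG12D (SE 0.31, adjusted p = 0.00108), −2.81 relative to the median gene, to 0.173 of the mean. Both calls were kept in 13 of 13 alternatives. Against NUP98-NSD1 its value with both oncogenes was −1.20 (SE 0.31, adjusted p = 0.0635, 0.00904 to 0.266 over 13 alternatives, 2 of them past the threshold), so this step did not pass, although the 3 libraries lay below the other 3. The antisense genes 9330179D12Rik and Gm43126 overlap 368 and 372 bases of Ccnd2 and stayed below 1 FPKM in all 9 libraries.

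Cyclin D3 is needed for the expansion of immature T cells. Its gene, Ccnd3 (chr17:47505051-47599691, plus strand), measured 241, 260.1 and 300.0 FPKM in NRASG12D, 265, 251 and 247 in NUP98-NSD1, and 303, 266 and 410.4 in NUP98-NSD1+NRASG12D. The NUP98-NSD1 values lay inside the range of NRASG12D, and the NUP98-NSD1+NRASG12D values lay above those of NUP98-NSD1, with the nearest libraries at 266 and 265 FPKM. Its means of 267 ± 30.1, 254 ± 9.24 and 326 ± 75.1 FPKM (SD, n = 3 each) differed by at most 1.28 times, less as a ratio than the group means of the other D cyclins. The fold change was −0.06 in NUP98-NSD1 minus NRASG12D (95% interval −0.30 to 0.17, adjusted p = 0.606), 0.27 in NUP98-NSD1+NRASG12D minus NRASG12D (−0.23 to 0.77, adjusted p = 0.336) and 0.33 in NUP98-NSD1+NRASG12D minus NUP98-NSD1 (−0.16 to 0.83, adjusted p = 0.401). The first of these was a fall past the threshold under median-ratio scaling (−0.40, adjusted p = 0.0232) and quantile normalization (−0.33, adjusted p = 0.0305), with adjusted p from 0.0232 to 0.849 over 13 alternatives, and it was 0.02 without NRASG12D replicate 3. The second was −0.07 under quantile normalization. Without NUP98-NSD1+NRASG12D replicate 3 the second was 0.09 and the third 0.16. Bysl, on the opposite strand, shares 361 bases or 4.11% of the exonic length of Ccnd3 and rose by 0.36 in NUP98-NSD1 relative to NRASG12D (adjusted p = 0.0181), from a mean of 17.0 FPKM to 22.1.

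Where Ccnd1 was lower, in NUP98-NSD1 against NRASG12D, Ccnd2 was lower too and no rise of Ccnd3 passed the test. In mean FPKM, Ccnd1 was different by −28.1, Ccnd2 by −741 and Ccnd3 by −12.7 between these groups. For Ccnd3 alone to make up the Ccnd1 difference, its mean would have to be 0.14 higher on the log2 scale, which lies inside the interval of −0.30 to 0.17 around its fold change and above the interval of −0.66 to −0.14 under median-ratio scaling. To make up the Ccnd1 and Ccnd2 differences together, 769 FPKM, the figure would be 1.96, above both intervals.

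The 3 D cyclin genes together gave 1272, 1488 and 1737 FPKM in NRASG12D, 651, 716 and 784 in NUP98-NSD1, and 555, 572.5 and 584 in NUP98-NSD1+NRASG12D. These sums did not overlap between groups, and the mean in NUP98-NSD1 was 47.8% of that in NRASG12D, or 37.9% under median-ratio scaling. In NUP98-NSD1+NRASG12D it was 38.0% of that in NRASG12D (32.4% under the same scaling), where the Ccnd1 values overlapped those of NRASG12D. Under that scaling the NUP98-NSD1+NRASG12D sums of 466, 602 and 585 overlapped the NUP98-NSD1 sums of 567, 616 and 754. Within NUP98-NSD1+NRASG12D the sum had an SD of 14.4 FPKM, or 74.3 under median-ratio scaling, and replicate 3 held the lowest Ccnd2 and the highest Ccnd3 of its group.

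The make-up of the sum shifted more than the Ccnd3 level. Ccnd2 made up 80.1% ± 0.852 of it in NRASG12D, 63.8% ± 4.58 in NUP98-NSD1 and 36.7% ± 13.4 in NUP98-NSD1+NRASG12D (SD, n = 3). Ccnd3 made up 17.9% ± 0.919, 35.8% ± 4.61 and 57.1% ± 12.2 in the same order, and its share did not overlap between groups. The Ccnd3 share thus went up with lower Ccnd2, at a mean Ccnd3 level of 267 and 254 FPKM in the first 2 groups. Ccnd1 held 2.02% ± 1.29, 0.411% ± 0.111 and 6.25% ± 2.59, so it was the smallest of the 3 in each group.

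**Figure D2:**
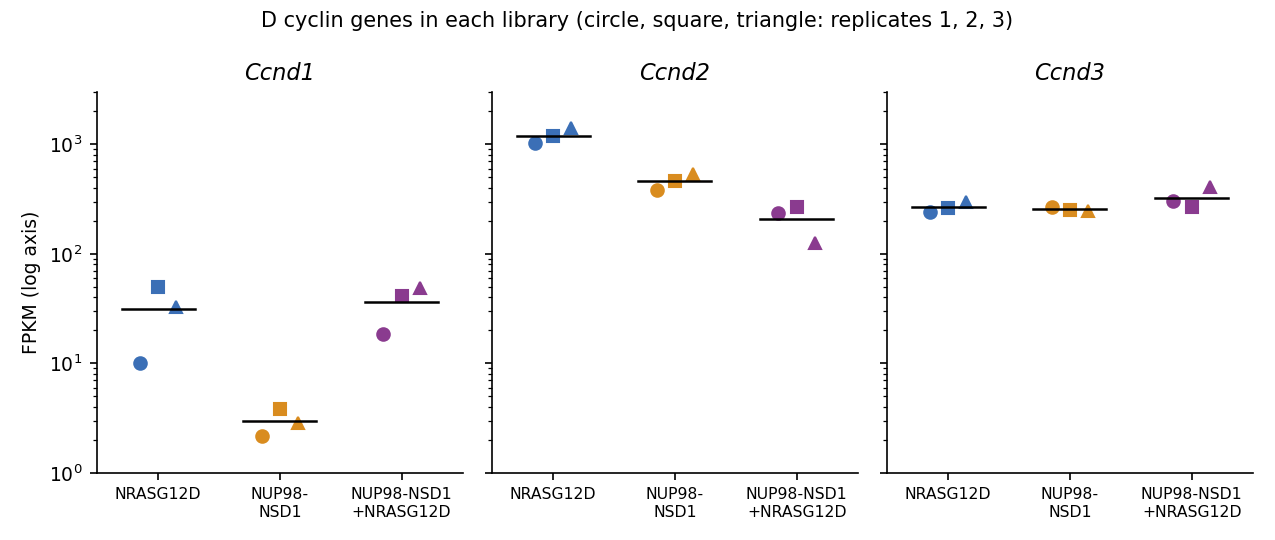
FPKM of Ccnd1, Ccnd2 and Ccnd3 (log axis) in each library by group, with circles, squares and triangles for replicates 1, 2 and 3 and a line at the mean of 3. Ccnd1 was lowest in NUP98-NSD1 at 2.16 to 3.85 FPKM, Ccnd2 separated all 3 groups, and Ccnd3 stayed between 241 and 410.4 FPKM.

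**Figure D3:**
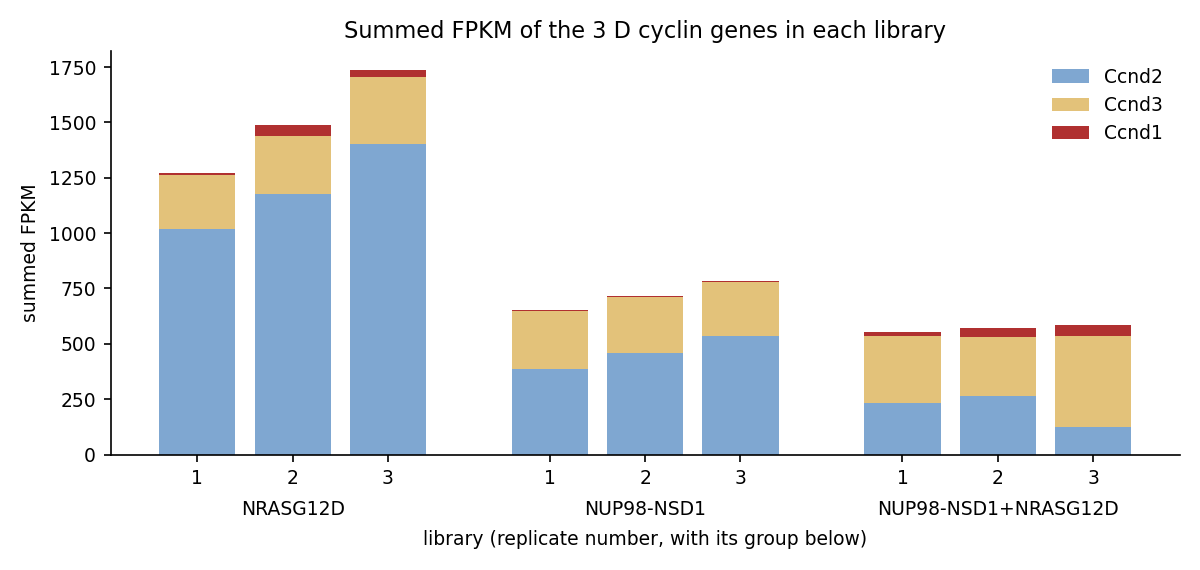
Summed FPKM of the D cyclin genes in each library, stacked by gene. The NRASG12D sums, 1272 to 1737, stood above the others, those with both oncogenes were lowest at 555 to 584, and Ccnd2 gave most of the difference.

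CDK4 is one of the kinases that the D cyclins activate. Its gene, Cdk4 (chr10:127063534-127067920, plus strand), measured 246, 222 and 214 FPKM in NRASG12D, 462, 476 and 357 in NUP98-NSD1, and 626, 267 and 266 in NUP98-NSD1+NRASG12D. Every NUP98-NSD1 library lay above every NRASG12D library, and in NUP98-NSD1+NRASG12D replicate 1 stood far above the other libraries of its group. Cdk4 rose by 0.91 in NUP98-NSD1 relative to NRASG12D (SE 0.13, adjusted p = 0.00199), 0.64 relative to the median gene, or 1.90 times in mean FPKM. The call ended when all 9 libraries shared one fit (adjusted p = 0.0609, range over 13 alternatives 0.000106 to 0.0609). In NUP98-NSD1+NRASG12D minus NRASG12D the fold change was 0.64 (adjusted p = 0.176), with all 3 libraries above all 3, and against NUP98-NSD1 it was −0.27 (adjusted p = 0.752). Without NUP98-NSD1+NRASG12D replicate 1 these values were 0.23 (adjusted p = 0.160, range over 13 alternatives 0.107 to 0.461) and −0.68 (adjusted p = 0.0504, range 0.0504 to 0.974). Tspan31, on the opposite strand, overlaps 641 bases or 19.7% of the exonic length of Cdk4 and its levels overlapped in all 3 groups, the lowest library at 109 FPKM and the highest at 142.

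CDK6 is the other partner kinase of the D cyclins. Its gene, Cdk6 (chr5:3341485-3531008, plus strand), measured 35.2, 37.3 and 45.3 FPKM in NRASG12D, 39.7, 45.0 and 43.8 in NUP98-NSD1, and 33.4, 30.6 and 29.9 in NUP98-NSD1+NRASG12D. The first 2 groups overlapped and the libraries with both oncogenes were the 3 lowest. The fold change was 0.13 in NUP98-NSD1 minus NRASG12D (adjusted p = 0.368), a value that turned to −0.20 under median-ratio scaling and −0.18 under quantile normalization. It was −0.31 in NUP98-NSD1+NRASG12D minus NRASG12D (adjusted p = 0.140), which passed under median-ratio scaling (−0.55, adjusted p = 0.0286) and quantile normalization (−0.61, adjusted p = 0.0184, range over 13 alternatives 0.0184 to 0.425). Against NUP98-NSD1 it was −0.44 (SE 0.14, adjusted p = 0.101, past the threshold in 3 of 13 alternatives). In every library Cdk4 exceeded Cdk6, by 5.89 ± 1.14 times in NRASG12D, 10.1 ± 1.78 in NUP98-NSD1 and 12.1 ± 5.74 in NUP98-NSD1+NRASG12D (SD, n = 3). The last ratio was 18.8 in replicate 1 and 8.74 and 8.90 in the other libraries, within the range of 8.16 to 11.6 in NUP98-NSD1.

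An antisense gene inside the Cdk6 locus, Gm17590, shares 368 bases or 2.63% of the exonic length of Cdk6. It measured 1.54, 1.41 and 1.56 FPKM in NRASG12D, 11.5, 14.8 and 8.76 in NUP98-NSD1, and 0.951, 3.17 and 0.539 in NUP98-NSD1+NRASG12D. The NUP98-NSD1 libraries stood above all others, and Gm17590 rose by 2.31 relative to NRASG12D (SE 0.18, adjusted p = 0.000286) and was −2.42 in NUP98-NSD1+NRASG12D minus NUP98-NSD1 (SE 0.39, adjusted p = 0.0161), while Cdk6 passed the test in neither comparison.

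Cdkn1a encodes p21, a CIP/KIP inhibitor that p53 switches on. Cdkn1a (chr17:29090976-29100727, plus strand) was the most abundant of the 4 inhibitor genes, at 365, 326 and 416 FPKM in NRASG12D, 296, 288 and 321 in NUP98-NSD1, and 166, 311 and 282 in NUP98-NSD1+NRASG12D. NUP98-NSD1 lay below NRASG12D without overlap, at 321 against 326 FPKM for the nearest libraries, and NUP98-NSD1+NRASG12D replicate 1 was the lowest of all 9. Cdkn1a held 87.3% ± 1.61, 86.9% ± 1.29 and 90.1% ± 4.92 (SD, n = 3) of the FPKM of the 4 inhibitor genes in the 3 groups. Its fold change in NUP98-NSD1 minus NRASG12D was −0.29 (SE 0.11, adjusted p = 0.0614), −0.56 relative to the median gene, and it passed in 6 of 13 alternatives, among them median-ratio scaling (−0.62, adjusted p = 0.0118, range over 13 alternatives 0.0118 to 0.363). AC167363.2, on the opposite strand, shares 273 bases or 7.68% of the exonic length of Cdkn1a and measured at most 2.47 FPKM. The other comparisons of Cdkn1a gave −0.59 (adjusted p = 0.121) for NUP98-NSD1+NRASG12D minus NRASG12D and −0.30 (adjusted p = 0.574) against NUP98-NSD1, and without NUP98-NSD1+NRASG12D replicate 1 they were −0.31 (adjusted p = 0.149, range over 13 alternatives 0.0588 to 0.307) and −0.02 (adjusted p = 0.919, range 0.322 to 0.919).

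Cdkn1b encodes p27, the other CIP/KIP inhibitor followed here. Cdkn1b (chr6:134920401-134925513, plus strand) measured 6.198, 6.13 and 5.05 FPKM in NRASG12D, 8.17, 6.204 and 6.36 in NUP98-NSD1, and 7.43, 4.31 and 6.47 in NUP98-NSD1+NRASG12D. The nearest libraries of the first 2 groups stood at 6.198 and 6.204 FPKM, so those groups were barely apart, and the last group, from 4.31 to 7.43 FPKM, overlapped both. No comparison passed, at 0.22 (adjusted p = 0.219), 0.04 (adjusted p = 0.904) and −0.18 (adjusted p = 0.729) in the order given above. The first 2 values were below 0 under median-ratio scaling (−0.08 and −0.17) and quantile normalization (−0.10 and −0.21).

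Cdkn2a encodes the INK4 inhibitor p16Ink4a and, from another first exon, the p53 activator p19Arf, and both are merged in a single FPKM value. Cdkn2a (chr4:89274471-89294653, minus strand) measured 39.5, 40.1 and 44.8 FPKM in NRASG12D, 26.2, 31.3 and 25.8 in NUP98-NSD1, and 15.4, 27.4 and 6.96 in NUP98-NSD1+NRASG12D. Both groups with NUP98-NSD1 lay below NRASG12D, and they overlapped each other at replicate 2 of NUP98-NSD1+NRASG12D. Cdkn2a fell by 0.57 in NUP98-NSD1 relative to NRASG12D (SE 0.10, adjusted p = 0.00470), −0.84 relative to the median gene, in 3 of 3 libraries. That call ended with all 9 libraries in one fit (adjusted p = 0.272, range over 13 alternatives 0.00117 to 0.272). It fell by 1.45 in NUP98-NSD1+NRASG12D relative to NRASG12D (SE 0.42, adjusted p = 0.0338), −1.68 relative to the median gene. This second call ended without the filter on low values (adjusted p = 0.145), without NRASG12D replicate 1 (0.0854), replicate 2 (0.0866) or replicate 3 (0.105) and without NUP98-NSD1+NRASG12D replicate 1 (0.0675), with a range over 13 alternatives of 0.00324 to 0.145. Between the 2 groups with NUP98-NSD1 the value was −0.89 (adjusted p = 0.267), with −1.33 without NUP98-NSD1+NRASG12D replicate 2 and −0.41 without replicate 3.

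Cdkn2c encodes p18Ink4c, an INK4 inhibitor that restrains the division of blood stem cells. Cdkn2c (chr4:109660876-109667189, minus strand) measured 3.16, 9.39 and 5.79 FPKM in NRASG12D, 7.61, 11.4 and 12.5 in NUP98-NSD1, and 5.94, 3.27 and 1.24 in NUP98-NSD1+NRASG12D. The libraries with NUP98-NSD1 alone were high and those with both oncogenes low without overlap, and NRASG12D overlapped both. No comparison passed, with 0.76 (SE 0.33, adjusted p = 0.0909) for NUP98-NSD1 minus NRASG12D, −0.72 (adjusted p = 0.269) for NUP98-NSD1+NRASG12D minus NRASG12D and −1.48 (SE 0.42, adjusted p = 0.0758) for the last. The first and the last passed in 2 of 13 alternatives each, with adjusted p from 0.0225 to 0.320 and from 0.0101 to 0.328. With libraries left out the first value ranged from 0.43 to 1.09 and the second from −1.10 to −0.29.

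The retinoblastoma protein binds E2F factors until CDK4 and CDK6 phosphorylate it. The tables list Rb1 (chr14:73183673-73325822, minus strand) in 2 entries, and their sum was 38.8, 27.4 and 28.1 FPKM in NRASG12D, 14.8, 19.1 and 23.9 in NUP98-NSD1, and 4.59, 7.11 and 3.57 in NUP98-NSD1+NRASG12D. The 3 groups did not overlap, in the order NRASG12D, NUP98-NSD1, NUP98-NSD1+NRASG12D. Rb1 fell by 2.44 in NUP98-NSD1+NRASG12D relative to NRASG12D (SE 0.25, adjusted p = 0.000604), −2.67 relative to the median gene, past the threshold in 14 of 14 alternatives, although 1 of these moved its size as given below. It fell by 1.75 relative to NUP98-NSD1 (SE 0.27, adjusted p = 0.0143), and this call ended without the filter (adjusted p = 0.107) and without NUP98-NSD1 replicate 2 (0.0654) or replicate 3 (0.0695), with a range over 14 alternatives of 0.00265 to 0.107.

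In NUP98-NSD1 relative to NRASG12D, Rb1 fell by 0.69 (SE 0.20, adjusted p = 0.0239), −0.96 relative to the median gene. That call ended without the filter (adjusted p = 0.123), with all 9 libraries in one fit (0.0747), with the replicate number as a block (0.0550), without NRASG12D replicate 1 (0.0696) and without NUP98-NSD1 replicate 1 (0.0691) or replicate 2 (0.0670), with a range over 14 alternatives of 0.00415 to 0.123.

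The entry for the whole Rb1 gene, taken alone after the data were seen, measured 10.3, 12.8 and 11.9 FPKM in NRASG12D, 6.89, 6.43 and 9.50 in NUP98-NSD1, and 2.73, 3.49 and 3.21 in NUP98-NSD1+NRASG12D. It kept the 3 groups apart in the same order. Its fold changes were −0.57 (adjusted p = 0.0199) in NUP98-NSD1 minus NRASG12D, −1.61 (adjusted p = 0.000569) in NUP98-NSD1+NRASG12D minus NRASG12D and −1.04 (adjusted p = 0.0250) in the third comparison, so all 3 were smaller in size than with both entries. The short entry, chr14:73238546-73239786, held 28.5, 14.7 and 16.2 FPKM in NRASG12D, 7.87, 12.7 and 14.4 in NUP98-NSD1, and 1.86, 3.62 and 0.362 in NUP98-NSD1+NRASG12D. All 1241 of its bases lie inside the single exon of Lpar6, a lysophosphatidic acid receptor gene on the plus strand within the Rb1 locus. Lpar6 measured 54.9, 44.6 and 51.75 FPKM in NRASG12D, 40.4, 35.1 and 43.8 in NUP98-NSD1, and 13.6, 12.8 and 4.88 in NUP98-NSD1+NRASG12D. It followed the same order of groups, with fold changes of −0.34 (adjusted p = 0.0449), −2.28 (adjusted p = 0.00283) and −1.94 (adjusted p = 0.0231), and reads of the short entry and of Lpar6 cannot be told apart. Rcbtb2, also on the opposite strand, shares 488 bases or 8.11% of the exonic length of Rb1, against 408 bases for Lpar6, and its fold changes were 0.05 (adjusted p = 0.580), −0.05 (adjusted p = 0.866) and −0.10 (adjusted p = 0.859).

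**Figure D4:**
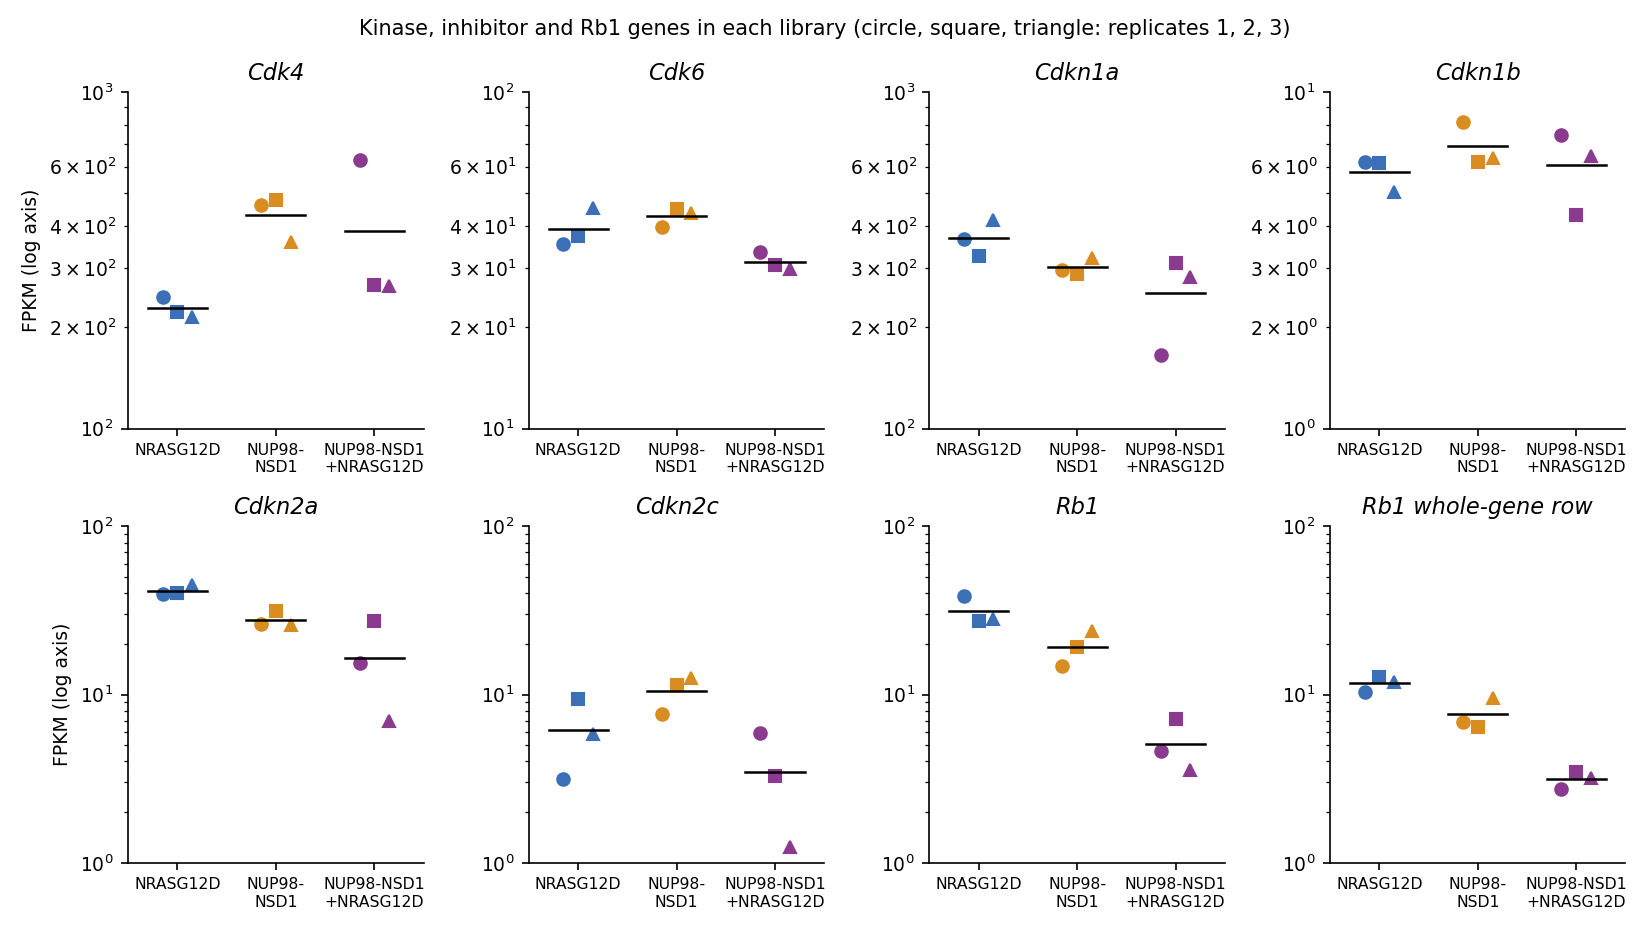
FPKM of the kinase, inhibitor and Rb1 genes (log axis) in each library by group, with circles, squares and triangles for replicates 1, 2 and 3 and a line at the mean of 3. Cdk4 was higher in NUP98-NSD1 than in NRASG12D, Cdkn2a was lower in both groups with NUP98-NSD1, and Rb1 was lowest with both oncogenes by either way of reading its entries.

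Genes that act with or against the members were taken from lists, and their counts are given beside the share of all tested genes called in that direction. Of 5 other CDK inhibitor and pocket protein genes, 2 rose and 2 fell in NUP98-NSD1 minus NRASG12D (all tested genes 42.2% and 9.98%; median 0.35, beside 0.27 for all tested genes), so the share that rose was near that of all genes. With both oncogenes against NRASG12D, 2 rose and 1 fell (all tested genes 24.2% and 14.1%, median 0.19, beside 0.23). Cdkn2b, the INK4 gene next to Cdkn2a, fell by 0.49 in NUP98-NSD1 (adjusted p = 0.0186, past the threshold in 9 of 13 alternatives), and the pocket protein gene Rbl1 rose by 0.40 (adjusted p = 0.0443, in 3 of 13). Cdkn2d, another INK4 gene, measured 36.25, 41.2 and 27.3 FPKM in NRASG12D and 75.65, 55.0 and 104 in NUP98-NSD1+NRASG12D, and it rose by 1.11 (adjusted p = 0.0171) where Cdkn2a fell, a call lost without the filter and without NRASG12D replicate 1 or 3 (adjusted p up to 0.0827). Rbl2, a relative of Rb1, measured 30.1, 29.6 and 31.4 FPKM in NRASG12D and 17.2, 15.7 and 12.3 in NUP98-NSD1+NRASG12D, and it fell by 0.98 (adjusted p = 0.00397, past the threshold in 13 of 13 alternatives). Both genes kept their groups apart. Cdkn1c was near the floor in NRASG12D, at 0, 0.104 and 4.54e-08 FPKM, against 0.580, 0.617 and 0.228 in NUP98-NSD1 and 1.01, 1.44 and 2.36 in NUP98-NSD1+NRASG12D. None of this list rose in NUP98-NSD1 minus NRASG12D without NRASG12D replicate 1 or 3 or NUP98-NSD1 replicate 1 or 2, under quantile normalization or with all 9 libraries in one fit, and 1 fell without NRASG12D replicate 3, NUP98-NSD1 replicate 1 or the filter, and 0 fell with all 9 libraries in one fit. The rises of Cdkn1c and Rbl1 in this comparison were also lost without the filter and with the replicate block.

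Of 10 E2F and DP genes, a family that includes the factors bound by the retinoblastoma protein, 7 rose and 1 fell in NUP98-NSD1 minus NRASG12D (all tested genes 42.2% and 9.98%, median 0.61, beside 0.27). With both oncogenes against NRASG12D 3 rose, a share near the 24.2% of all tested genes, and 0 fell (14.1% of all tested genes, median 0.46, beside 0.23). At an unadjusted p below 0.05 in limma 5 were higher and 1 lower, where 6697 of all 13493 tested genes passed in either direction. Under median-ratio scaling the counts past the adjusted threshold were 5 higher and 2 lower, and then 3 and 1. E2f2, an activating E2F gene, measured 1.76, 2.06 and 1.204 FPKM in NRASG12D, 6.22, 5.10 and 5.87 in NUP98-NSD1, and 12.1, 7.79 and 7.18 in NUP98-NSD1+NRASG12D. All libraries with NUP98-NSD1 lay above NRASG12D, and E2f2 rose by 1.34 (adjusted p = 0.00113) and 1.89 (adjusted p = 0.00132). Tfdp1, the DP partner of the E2F factors, rose by 1.30 (adjusted p = 0.000929) and 1.19 (adjusted p = 0.0179, lost without the filter and without NRASG12D replicate 1 or 3), from a mean of 33.4 FPKM to 84.0 and 81.6. Without NUP98-NSD1 replicate 2 or under quantile normalization the first count was 4 higher, and without NRASG12D replicate 3 the second was 1 and with all 9 libraries in one fit 5. Without the filter on low values the rises of E2f3, E2f5 and E2f6 and the fall of E2f1 in the first comparison were lost.

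All 7 genes of the cyclin E, cyclin A and CDK2 module, which acts after the D cyclins, rose in NUP98-NSD1 minus NRASG12D (42.2% of all tested genes, median 0.84, beside 0.27), and 4 rose in NUP98-NSD1+NRASG12D minus NRASG12D (24.2% of all tested genes, median 0.77, beside 0.23). Under median-ratio scaling 5 and 2 rose, and under quantile normalization 4 and 1. Ccne1, the cyclin E1 gene, measured 11.6, 10.9 and 8.13 FPKM in NRASG12D, 22.6, 21.8 and 21.04 in NUP98-NSD1, and 38.4, 23.9 and 34.3 in NUP98-NSD1+NRASG12D. It kept the 3 groups apart and rose by 1.04 (adjusted p = 0.00153) and 1.55 (adjusted p = 0.00221) relative to NRASG12D. Skp2, which marks p27 for breakdown, rose by 1.21 in NUP98-NSD1 (adjusted p = 0.000887). The second count was 2, 1 and 1 without NRASG12D replicates 1, 2 and 3, and 1 without NUP98-NSD1+NRASG12D replicate 3, while 7 rose with all 9 libraries in one fit. Without the filter on low values the rise of Ccne2 in the first comparison and those of Cks1b and Cdk2 in the second were lost.

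Of 9 genes for D cyclin turnover and CDK activation, 7 were tested, Fbxo31 was not analysed here and Cryab was below the filter at 0 to 0.744 FPKM. In NUP98-NSD1 minus NRASG12D, 5 rose and 0 fell (all tested genes 42.2% and 9.98%, median 0.54, beside 0.27), led by Ccnh at 0.65 (adjusted p = 0.00303), a subunit of the kinase that activates CDK4 and CDK6. The counts were also 5 and 0 at an unadjusted p below 0.05, where 8026 of all 13493 tested genes passed in either direction. With both oncogenes against NRASG12D none passed in limma (all tested genes 24.2% and 14.1%, median 0.54, beside 0.23), and 4 passed without NUP98-NSD1+NRASG12D replicate 2. At an unadjusted p below 0.05, 3 were higher and 0 lower, where 6697 of all 13493 tested genes passed in either direction. Fbxo4, a ubiquitin ligase subunit listed for D cyclin breakdown, rose by 0.64 in NUP98-NSD1 (adjusted p = 0.0284, past the threshold in 6 of 13 alternatives). The first count was 3 higher and 1 lower under both scalings, 3 higher without NUP98-NSD1 replicate 2 and 1 with all 9 libraries in one fit. Without the filter on low values the rises of Fbxo4 and Cdk7 were lost.

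Of the 15 listed E2F target genes of S phase, 14 were tested, Cdt1 was not analysed here, and Ccne2 is also in the cyclin E list. All 14 rose in NUP98-NSD1 minus NRASG12D (42.2% of all tested genes, median 0.91, beside 0.27), or 12 under median-ratio scaling, and 9 rose in NUP98-NSD1+NRASG12D minus NRASG12D (24.2% of all tested genes, median 0.82, beside 0.23). Mcm5, a subunit of the replicative helicase, measured 44.85, 43.55 and 34.0 FPKM in NRASG12D, 104, 105 and 95.4 in NUP98-NSD1, and 157, 70.4 and 91.2 in NUP98-NSD1+NRASG12D. Its libraries with NUP98-NSD1 all lay above NRASG12D, and it rose by 1.30 (adjusted p = 0.000531) and 1.29 (adjusted p = 0.0152, lost without the filter and without NRASG12D replicate 3). Cdc6, which loads that helicase, rose by 1.26 (adjusted p = 0.000286) and 1.33 (adjusted p = 0.00680). The count of 9 became 4, 2 and 1 without NRASG12D replicates 1, 2 and 3, 6 without NUP98-NSD1+NRASG12D replicate 3, 1 without the filter on low values and 5 under quantile normalization. Over all 13493 tested genes the 3266 higher became 1827, 1933 and 1727 without those NRASG12D replicates, 2613 without NUP98-NSD1+NRASG12D replicate 3 and 2151 under quantile normalization. Without the filter 1911 of 41853 genes were higher, and in NUP98-NSD1 minus NRASG12D the rise of Ccne2 was lost. The S phase genes of this list stood higher in NUP98-NSD1 than in NRASG12D, and the D cyclin sum stood lower.

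Of 10 mitosis genes, 9 rose in NUP98-NSD1 minus NRASG12D (42.2% of all tested genes, median 1.04, beside 0.27) and 7 rose in NUP98-NSD1+NRASG12D minus NRASG12D (24.2% of all tested genes, median 1.16, beside 0.23), or 7 in each under median-ratio scaling. Aurka, a spindle kinase gene, measured 25.2, 26.99 and 19.9 FPKM in NRASG12D, 63.5, 59.8 and 49.2 in NUP98-NSD1, and 103, 54.6 and 82.9 in NUP98-NSD1+NRASG12D. It overlapped only between the 2 groups with NUP98-NSD1 and rose by 1.23 (adjusted p = 0.00119) and 1.66 (adjusted p = 0.00277) relative to NRASG12D. The count of 7 in the second comparison became 4 without NRASG12D replicate 3 and 4 without the filter.

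Of 10 p53 targets other than Cdkn1a, 1 rose and 4 fell in NUP98-NSD1 minus NRASG12D (all tested genes 42.2% and 9.98%, median −0.29, beside 0.27), or 0 and 8 under median-ratio scaling. With both oncogenes against NRASG12D 0 rose and 7 fell in limma (all tested genes 24.2% and 14.1%, median −0.93, beside 0.23). The counts were 0 and 7 also at an unadjusted p below 0.05, where 6697 of all 13493 tested genes passed in either direction. Bbc3, a cell death gene, measured 34.7, 67.1 and 68.4 FPKM in NRASG12D, 29.9, 37.15 and 44.2 in NUP98-NSD1, and 17.8, 14.1 and 8.465 in NUP98-NSD1+NRASG12D. Its values with both oncogenes lay below all others, and it fell by 1.99 relative to NRASG12D (adjusted p = 0.00486) and by 1.44 relative to NUP98-NSD1 (adjusted p = 0.0296). Phlda3, which restrains AKT, fell by 2.02 in NUP98-NSD1+NRASG12D relative to NRASG12D (adjusted p = 0.0120), a call lost without the filter (adjusted p = 0.0777). Sesn2 fell by 0.65 in NUP98-NSD1 (adjusted p = 0.00762). The single rise, Gdf15 at 0.64 (adjusted p = 0.0484), passed in 3 of 13 alternatives. The count of 7 became 2 without the filter, 3 without any 1 of the NRASG12D replicates, and 4 without NUP98-NSD1+NRASG12D replicate 1 or replicate 3, and the 4 falls of the first comparison became 1 with all 9 libraries in one fit.

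Between the 2 groups with NUP98-NSD1, Bbc3 was the 1 gene of these lists that passed in limma (past the threshold in 6 of 13 alternatives, adjusted p 0.00438 to 0.167), and the p53 list gave 0 calls without any 1 of the NUP98-NSD1 replicates or NUP98-NSD1+NRASG12D replicate 3. In that list 5 were lower at an unadjusted p below 0.05, where 3316 of all 13493 tested genes passed in either direction. After adjustment 2.30% of all tested genes rose and 6.31% fell. The median of the list was −0.65, beside −0.06 for all tested genes. The other inhibitors and pocket proteins gave 0 calls (median −0.22, beside −0.06 for all tested genes). At an unadjusted p below 0.05, 2 of them were higher and 1 lower, and the 3316 of 13493 genes above are the background for this and the next lists. The E2F and DP genes gave 0, with 1 higher and 1 lower unadjusted (median −0.11), and the cyclin E list 0, with 1 higher unadjusted (median 0.07). The turnover list and the mitosis list had 0 at either level (medians −0.04 and 0.10), and the S phase list 0, with 1 lower unadjusted (median −0.06). Leaving out NUP98-NSD1+NRASG12D replicate 1 gave 2 lower E2F and DP genes, 1 lower S phase gene and 1 lower gene of the cyclin E list. Rb1 and Ccnd1 moved between these groups while no S phase or mitosis gene of the lists passed, and the difference between members and lists was not tested.

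For 4 members the tested genes with the most similar profile over the 9 libraries were found, among 8078 genes, by Pearson correlation, as a description without a test, since the points fall into 3 groups. Ccnd1 was most like Ubr4 (r = 0.934), Nras (0.918), Svil (0.911), Ypel5 (0.881) and Ckb (0.866). Ccnd2 was most like Clint1 (0.991), Ccnj (0.990), Sdccag8 (0.989), Cog1 (0.986) and Luzp1 (0.985). The Nras value may hold reads of the vector insert, which was not tested. Its means were 394 FPKM in NRASG12D, 49.7 in NUP98-NSD1, sorted for GFP, the marker of the fusion vector, and 403 in NUP98-NSD1+NRASG12D. For Ccnd3 the list was Dgkd (0.919), Selenbp2 (0.914), Selenbp1 (0.905), Sh3bgrl3 (0.894) and Hilpda (0.880), and for Cdk6 it was Arl2bp (0.929), Sec31a (0.929), Stt3b (0.927), Dpy19l3 (0.926) and Tgfb1 (0.922).

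Promoter sequences from RefSeq (GRCm38.p6) matched 7 of the 10 members, with 11 start sites, and Ccnd1, Ccnd2 and Rb1 are named without one. The 250 bases before each start were searched on both strands for CACGTG, an E-box that MYC can bind, TGACTCA, which AP-1 can bind, and TGACGTCA, which CREB can bind. The first was chosen after the sequences had been seen. Of all 32851 promoters of this length, 6.02% held CACGTG, 4.46% TGACTCA and 1.55% TGACGTCA. Among the members, Cdk4 held 4 copies of CACGTG, between 172 and 11 bases before its start, and Cdk6 held 1, while the other start sites held none and neither of the other motifs occurred. At least 4 copies, a cutoff set at the count of Cdk4 itself, were found in 7 promoters, 0.0213% of all. The upstream sequence of Cdk4, the kinase gene that rose in NUP98-NSD1, is shown without exonic bases at chr10:127063285-127063533 (GRCm38.p6, plus strand), with CACGTG in capitals. The match is a description of letters and not a binding site.
Cdk4: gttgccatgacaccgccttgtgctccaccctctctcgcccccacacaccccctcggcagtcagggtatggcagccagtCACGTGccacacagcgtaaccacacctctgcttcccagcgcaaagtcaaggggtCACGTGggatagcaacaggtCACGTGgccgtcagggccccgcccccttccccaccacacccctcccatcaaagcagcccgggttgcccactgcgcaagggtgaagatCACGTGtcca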

How the data were processed

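The deposited values are FPKM that the authors made with Cufflinks, one gene table per library. The submitters' processing notes name STAR 2.7.2a, Cufflinks 2.2.1 and the build GRCm38.p6. The methods describe DESeq2 on fragment counts, which was not run on FPKM. Groups came from the sample labels. Values of the same identifier were summed (55330 lines, 55274 identifiers). Coordinates and overlaps came from GENCODE M21 on GRCm38.

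Values were compared as log2(FPKM + 1) for genes reaching 1 FPKM in 3 or more of the 9 libraries. For each pair of groups the 6 libraries were fitted in R 4.3.3 by limma 3.58.1, using lmFit and eBayes with a trend, and with Benjamini-Hochberg adjustment over 13493 genes and a threshold of 0.05. Single members were compared by exact permutation tests. The fit was also run on simulated data, and those values are not given here. Depth was estimated from the steps of FPKM in 3386 single-transcript genes over 2500 bp, where 82.1% to 85.6% of low values lay within 0.1 step of a whole number.

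Alternatives were a pseudocount of 0.1, no filter, median-ratio scaling, quantile normalization, all 9 libraries in one fit, a replicate block, array weights and leaving out each library. The whole-gene entry of Rb1 was added after seeing the data. Beside the members, the text names from each pathway list, in each comparison, up to 3 genes past the threshold with the largest fold change, genes at the limit of detection, genes overlapping a member and the 5 most similar profiles, among genes with a mean FPKM of at least 5 whose symbol is not a Gm, Rik, -ps, Mir or Snor name. Some list genes whose calls ended without the filter are named too, as is Mki67 of the mitosis list, which did not pass. Members and lists were chosen with earlier results of these data known. A result on another marker gene is not reported here. Python 3.11.15, numpy 2.4.6, pandas 2.3.3, scipy 1.17.1 and matplotlib 3.10.9 were used.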

Additional observations from a re-analysis of the deposited data

How the results depend on the processing

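The Ccnd1 and Ccnd2 falls in NUP98-NSD1 minus NRASG12D passed in 13 of 13 alternatives, at −3.42 to −2.31 and −1.72 to −1.26; Ccnd3 was −0.40 under median-ratio scaling, −0.33 under quantile normalization and −0.136 to 0.0218 with libraries left out. With all 9 libraries in one fit 3065 genes and 2 members passed. Under median-ratio scaling and quantile normalization Cdk6 was −0.20 and −0.18 and Cdkn1b −0.0752 and −0.102. In NUP98-NSD1+NRASG12D minus NRASG12D leaving out libraries gave 2941 to 6327 genes, Ccnd1 at −0.28 to 0.83 and Cdkn1b at −0.10 to 0.23; Cdkn1b was −0.17 and −0.21 under the 2 scalings and Ccnd3 −0.0711 under quantile normalization. In NUP98-NSD1+NRASG12D minus NUP98-NSD1 no filter gave 169 genes and 0 members in limma (4724 genes and 5 members at an unadjusted p below 0.05), one fit 2251 and 4, array weights 3500 and 6, and leaving out libraries 283 to 2509 genes and 1 to 4 members, with Cdkn1b at −0.32 to 0.0137. The cause was not tested, except that a fit without a filter tests more genes (41853).

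Libraries of different groups share only a number, and nothing says that equal numbers share an animal or day, so the replicate block was not the main choice. As a check, the deviations of same-numbered libraries correlated at −0.177 to 0.16. With the replicate block 6864, 4531 and 801 genes and 6, 3 and 2 members passed. FPKM estimates of low genes rest on few fragments, and 3 libraries a group limit every test.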
